A study of Mus musculus with 4 samples.

Results

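The 39 genes listed here for the oxidation of fatty acids encode the carnitine system, acyl-CoA synthetases, the enzymes of the mitochondrial β-oxidation spiral, the electron transfer flavoprotein, peroxisomal counterparts, and related steps of branched-chain amino acid breakdown. They were chosen by name, with earlier results of these data known, and each gene's value is the sum of its transcripts in the table. Of the 39 genes, 38 were among the 11502 gene symbols of the table, and Decr1 was the one outside it. Of these 38, 36 averaged 1 FPKM or more across the libraries and were compared, out of 10604 genes in all. FPKM is a fragment count scaled by transcript length and by the fragments mapped in the library, so that levels of genes of different length are on 1 scale.

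The RNA-Seq libraries came from HT-22, an immortalized cell line of mouse hippocampal neurons, with 1 library in each of 4 groups. Ctrl was labelled wild type and, in the study's methods, carried negative control lentivirus. PGC-1α cells carried lentivirus that overexpresses PGC-1α. The methods state puromycin selection for transfected cells in general, and so for both of these groups. Ctrl+OGD and PGC-1α+OGD were their counterparts after oxygen and glucose deprivation (OGD) that lasted 2 h, with neither serum nor glucose in the medium and 5% CO2 and 95% N2 as the gas, followed by 24 h of recovery in normal medium. Glucose, serum and oxygen were thus withdrawn together, and each group is 1 culture of a line. With 1 library per group there is no spread within a group, so every difference below is a difference between 2 libraries, without a p value, an error or a replicate check. Where 4 values follow each other, the first pair is from Ctrl and PGC-1α without OGD and the second from the same 2 with OGD. A log2 fold change is the difference between 2 libraries in log2(FPKM + 1), a scale that makes differences of weakly expressed genes look smaller, and a gene is called higher or lower at 1.5-fold, a log2 value of 0.585.

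Fatty acids enter mitochondria as carnitine esters and are shortened in repeated cycles of dehydrogenation, hydration, a further dehydrogenation and thiolysis, which yield acetyl-CoA and reduced cofactors for respiration. PGC-1α, a transcriptional coactivator, is known to raise these genes in muscle, liver and brown fat through nuclear receptors such as the estrogen-related receptors and the PPARs. In brain, oxidation of fatty acids is usually ascribed more to astrocytes than to neurons.

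The targeted gene was examined first. Ppargc1a, which encodes PGC-1α (ENSMUSG00000029167, minus strand of GRCm38 chromosome 5), was at 0.900, 35.1, 0.103 and 8.41 FPKM. On the log2 scale PGC-1α was 4.25 above Ctrl and PGC-1α+OGD was 3.09 above Ctrl+OGD, so both libraries labelled as overexpressing were above both controls, and the level with OGD was below that without. The label of hippocampal neurons was less well borne out by markers. Of 12 neuron markers the table held 3, Dlg4, Syp and Camk2a, with summed levels of 6.001 to 10.2 FPKM, whereas Rbfox3, Map2 and Tubb3 were not among its genes. By contrast, Col1a1, Col1a2 and Pdgfrb, 3 of 5 fibroblast and mesenchymal markers, summed to 409 to 481 FPKM, while Dcn and Lum were not in the table. Most of that sum came from Col1a1 (156 to 198 FPKM) and Col1a2 (236 to 265 FPKM), with Pdgfrb at 17.2 to 28.3 FPKM. Astrocyte markers (3 of 5) summed to 16.4, 24.0, 13.6 and 19.0 FPKM and were higher in the PGC-1α library of each pair. S100b was at 11.9, 18.4, 10.04 and 16.6 FPKM, while Aldh1l1, at 3.99, 4.53, 2.75 and 2.32 FPKM, and Slc1a3, at 0.514, 1.09, 0.827 and 0.137 FPKM, were lower in PGC-1α+OGD than in Ctrl+OGD. Microglia markers (2 of 5) stayed at 0.740 to 2.66 FPKM, the oligodendrocyte marker Mbp (1 of 5) at 3.25 to 4.76 FPKM, and none of 4 adipocyte and liver markers was in the table. The part of these markers in the results was not tested, and in bulk RNA fewer cells of a type and less RNA per cell cannot be told apart. The members together held 0.330%, 0.382%, 0.308% and 0.348% of the total FPKM, and transcripts of the mitochondrial genome held 4.23%, 5.32%, 4.37% and 5.31%, so both shares were higher in the PGC-1α libraries.

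**Figure D1:**
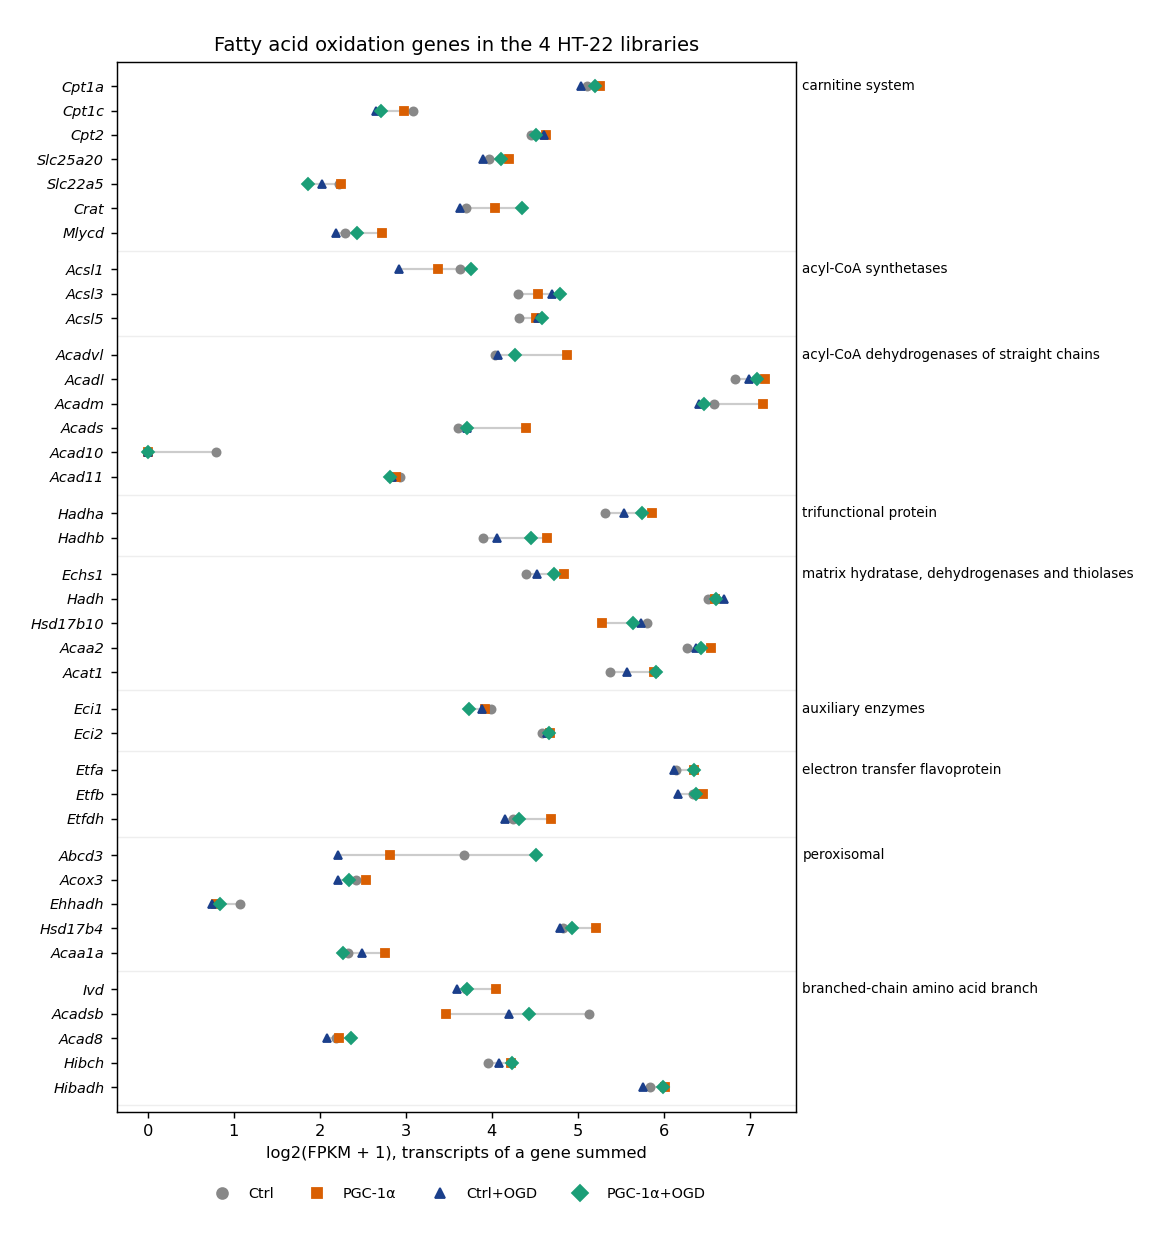
Level of each of the 38 genes in the table in the 4 libraries, as log2(FPKM + 1) with transcripts summed, grouped by role; each point is 1 library and the grey line spans the 4 values. Acadl and Acadm lie furthest to the right, Acad10 and Ehhadh furthest to the left, and the lines of Abcd3 and Acadsb are the longest among the genes compared.

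HT-22 cells expressed most of the pathway. Mean levels over the 4 libraries were highest for Acadl (129 FPKM), Acadm (102 FPKM), Hadh (96.3 FPKM), Acaa2 (84.0 FPKM), Etfb (79.6 FPKM) and Etfa (74.8 FPKM), all of them core enzymes of the mitochondrial spiral or of its electron transfer. The lowest mean levels among the genes compared were those of Slc22a5 (3.28 FPKM) and Acad8 (3.65 FPKM). Below the limit of 1 FPKM were Ehhadh, the peroxisomal bifunctional enzyme, at 1.10, 0.738, 0.675 and 0.790 FPKM, and Acad10, at 0.726 FPKM in Ctrl and listed at 0 in the other 3 libraries. As the plot of levels by library shows, most genes varied little beside the range between genes. The library with the highest value was PGC-1α for 21 of the 36 genes, PGC-1α+OGD for 9, Ctrl for 5 and Ctrl+OGD for 1. The lowest value was in Ctrl+OGD for 16 genes, in Ctrl for 14, in PGC-1α+OGD for 4 and in PGC-1α for 2. The same counts were not made over all genes, so they do not tell the members from other genes.

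The first comparison asked how these genes differed when PGC-1α was overexpressed in cells without OGD. In PGC-1α vs Ctrl, 29 of the 36 genes were above 0 on the log2 scale (80.6%, against 45.8% of all genes compared), with a median of 0.22 against -0.03 over all genes. The middle of the members' values ran from 0.07 to 0.43 (quartiles), against -0.22 to 0.17 for all genes. Few passed 1.5-fold: Acadvl, Acads and Hadhb were higher (3 of 36, 8.33%, against 4.91% of all genes), and Acadsb and Abcd3 were lower (2 of 36, 5.56%, against 5.63%). These shares are close to those of all genes, so the difference from the other genes lay in a modest common shift rather than in the number of large differences. Among the 19 members with 1 transcript in the table, 17 were above 0 (46.8% of all genes with 1 transcript), with a median of 0.28. Of these 19, Acads was higher by 1.5-fold and Abcd3 lower, against 4.69% and 4.79% of all genes with 1 transcript.

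**Figure D2:**
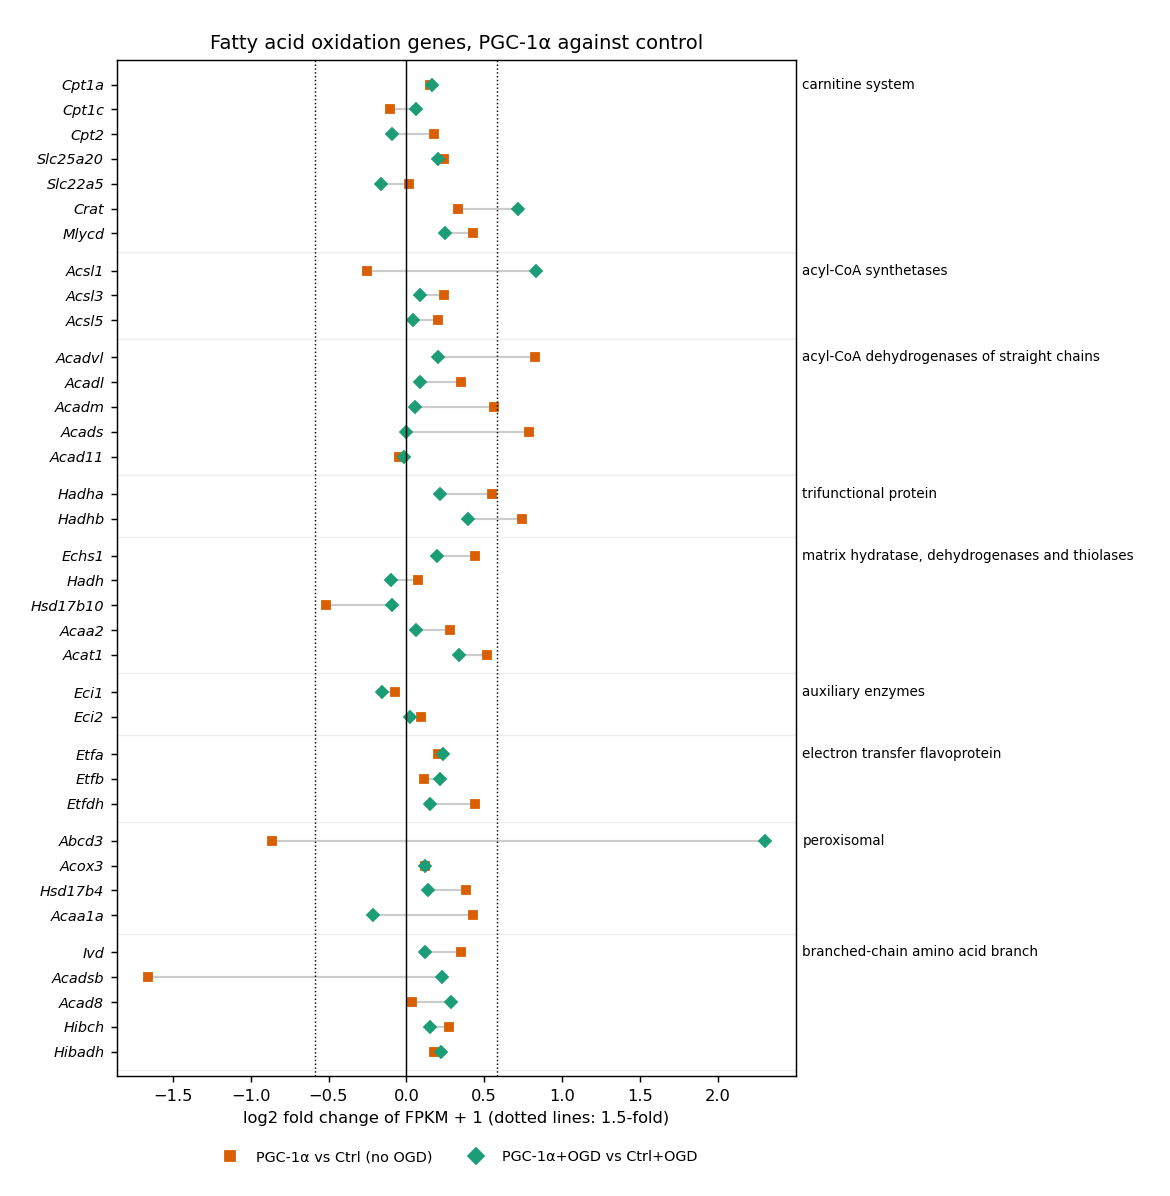
Log2 fold change of FPKM + 1 for the 36 genes compared, in PGC-1α vs Ctrl (squares) and in PGC-1α+OGD vs Ctrl+OGD (diamonds), grouped by role; each point compares 2 libraries, and dotted lines mark 1.5-fold. Most points lie right of 0 in both comparisons, the squares of the straight-chain dehydrogenases lie further right than their diamonds, and Abcd3 spans from -0.86 to 2.30.

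The acyl-CoA dehydrogenases of straight chains differed from control by a median of 0.56 without OGD and 0.06 with OGD. They catalyze the first step of each cycle and differ in the chain length they prefer. Their summed level was 241, 339, 244 and 258 FPKM. Acadvl, the very long-chain enzyme (ENSMUSG00000018574, minus strand of chromosome 11, 70010183 to 70015411 in GRCm38), was at 15.5, 28.3, 15.8 and 18.3 FPKM, a log2 fold change of 0.83 without OGD and of 0.20 with OGD. Acads, the short-chain enzyme (ENSMUSG00000029545, minus strand of chromosome 5, 115110299 to 115119346), was at 11.2, 19.997, 12.1 and 12.1 FPKM, with log2 fold changes of 0.79 and 0.00. For both genes the PGC-1α library stood apart from the other 3, which lay close together. Acadm, the medium-chain enzyme, was just under 1.5-fold without OGD, at 95.1, 141, 83.9 and 87.3 FPKM, with log2 fold changes of 0.56 and 0.06. Acadl, the long-chain enzyme, was at 112, 143, 126 and 134 FPKM, with log2 fold changes of 0.35 and 0.09. PGC-1α was the highest library for all 4 of these genes, while Acad11, which acts on very long and hydroxylated chains, was at 6.65, 6.41, 6.16 and 6.07 FPKM with little difference between libraries.

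The mitochondrial trifunctional protein, which carries out the last 3 steps of the cycle on long chains, had the highest median of the roles in both comparisons of PGC-1α with control, 0.64 without OGD and 0.30 with OGD, over its 2 genes, of which Hadhb passed 1.5-fold without OGD. Hadhb, the thiolase subunit (ENSMUSG00000059447, plus strand of chromosome 5, 30155248 to 30184593), was at 13.9, 23.9, 15.6 and 20.9 FPKM, with log2 fold changes of 0.74 without OGD and 0.39 with OGD. Hadha, the hydratase and dehydrogenase subunit (ENSMUSG00000025745, minus strand of chromosome 5, 30118304 to 30155162), was at 38.8, 57.2, 45.2 and 52.7 FPKM, with log2 fold changes of 0.55 and 0.21. Both subunits had greater values in the 2 PGC-1α libraries than in the 2 controls. The 4 libraries had the same order in both genes, an order also seen in other members, among them Acadl, Echs1 and Acaa2. Whether the 2 genes share regulation was not tested. The genes of the 2 subunits lie head to head, and the 85 bases between their annotated starts are shown (GRCm38.p6 sequence from RefSeq, gene starts from GENCODE, plus strand, chr5:30155163-30155247).
Hadha-Hadhb: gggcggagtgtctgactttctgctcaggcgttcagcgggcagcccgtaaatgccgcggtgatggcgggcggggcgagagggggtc

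Enzymes of the mitochondrial matrix that complete the cycle on shorter chains differed less. Echs1, the short-chain enoyl-CoA hydratase, was at 20.1, 27.7, 22.0 and 25.4 FPKM, with log2 fold changes of 0.44 and 0.20. Acat1, the thiolase of acetoacetyl-CoA in ketone body and isoleucine metabolism, was at 40.4, 58.3, 46.5 and 59.0 FPKM, with log2 fold changes of 0.52 and 0.34. In both genes the PGC-1α libraries were above the controls under either condition. Acaa2, the thiolase of medium chains, was at 76.1, 92.6, 81.8 and 85.4 FPKM, and Hadh, the 3-hydroxyacyl-CoA dehydrogenase, was at 90.6, 95.6, 103 and 96.1 FPKM. Hsd17b10, which oxidizes branched-chain intermediates and is also a subunit of mitochondrial RNase P, went the other way, at 54.7, 37.9, 52.1 and 48.7 FPKM, with log2 fold changes of -0.52 and -0.09. Of the auxiliary enzymes that handle unsaturated chains, Eci1 was at 14.9, 14.2, 13.8 and 12.3 FPKM and Eci2 at 22.9, 24.5, 23.9 and 24.3 FPKM, and their log2 fold changes stayed between -0.19 and 0.09 in the 4 comparisons.

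The electron transfer flavoprotein passes electrons from the acyl-CoA dehydrogenases to ubiquinone, and all 3 of its genes were above 0 in both comparisons. Etfa, the α subunit, was at 69.8, 80.6, 68.4 and 80.6 FPKM, with log2 fold changes of 0.20 and 0.23. Etfb, the β subunit, was at 79.7, 86.4, 70.4 and 82.0 FPKM, with 0.12 and 0.22. Etfdh, the ubiquinone oxidoreductase, was at 18.0, 24.8, 16.9 and 18.9 FPKM, with 0.44 and 0.15. The differences were small but the PGC-1α library of each pair was the higher one for all 3 genes. The median of the 3 was 0.20 without and 0.22 with OGD.

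The carnitine system carries acyl groups into the matrix, and its medians were 0.18 without OGD and 0.16 with OGD. Cpt1a, the outer-membrane carnitine palmitoyltransferase and the main point of control of the pathway, was at 33.4, 37.2, 31.8 and 35.7 FPKM, with log2 fold changes of 0.15 and 0.16. Slc25a20, the carnitine-acylcarnitine translocase of the inner membrane, was at 14.6, 17.4, 13.9 and 16.2 FPKM, with 0.24 and 0.20. Mlycd, which breaks down malonyl-CoA, the inhibitor of Cpt1 enzymes, was at 3.91, 5.60, 3.54 and 4.40 FPKM, with 0.43 and 0.25. In these 3 genes the PGC-1α libraries were above both controls, by less than 1.5-fold. Cpt2, the inner-membrane enzyme, had no common direction, at 20.9, 23.8, 23.3 and 21.8 FPKM. Slc22a5, the carnitine importer of the plasma membrane, was at 3.68, 3.73, 3.08 and 2.64 FPKM, and Cpt1c, the brain isoform of the endoplasmic reticulum, was at 7.48, 6.88, 5.28 and 5.55 FPKM, so that both were lower in the OGD libraries.

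The second comparison asked the same question in cells that had undergone OGD. In PGC-1α+OGD vs Ctrl+OGD, 29 of the 36 genes were again above 0 (47.1% of all genes compared), with a median of 0.15 against -0.01 over all genes. Abcd3, Acsl1 and Crat were at least 1.5-fold higher (3 of 36, 8.33%, against 3.08% of all genes), and no member was at least 1.5-fold lower (3.82% of all genes). Of these 3, Abcd3 was at least 1.5-fold lower without OGD, and Acsl1 and Crat were within 1.5-fold there. The closest gene below 1.5-fold was Hadhb (0.39). Of the 19 members with 1 transcript, 15 were above 0 (44% of all such genes), Abcd3 was higher (2.17% of all such genes) and none was lower (3.1%). The PGC-1α vs Ctrl and PGC-1α+OGD vs Ctrl+OGD comparisons share no library, and 25 of the 36 genes were above 0 in both (69.4%, against 23.3% of all genes). In the methods OGD followed transfection, so a difference between the transfected cells other than PGC-1α could enter both comparisons and cannot be told apart. The genes below 0 in both were Acad11, Hsd17b10 and Eci1, those above 0 without OGD only were Cpt2, Slc22a5, Hadh and Acaa1a, and those above 0 with OGD only were Cpt1c, Acsl1, Abcd3 and Acadsb. The log2 fold change was smaller with OGD than without in 24 genes and larger in 12, with a median difference of -0.16 against 0.01 over all genes. The level of Ppargc1a was also lower with OGD than without, and its part in this difference was not tested.

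Crat, the carnitine acetyltransferase that buffers acetyl-CoA (ENSMUSG00000026853, minus strand of chromosome 2), was at 12.02, 15.4, 11.4 and 19.4 FPKM, with log2 fold changes of 0.33 and 0.72. The larger value coincided with a different leading transcript. Crat-201, of 3833 bases, was at 11.7, 13.1, 10.2 and 2.61 FPKM, whereas Crat-202, of 2160 bases, was at 0.00518, 0.0325, 0.0290 and 14.9 FPKM. Since FPKM divides by length, the same fragments give a higher value when they are assigned to a shorter transcript. With each transcript weighted by its length, Crat was at 14.5, 17.4, 12.7 and 13.6 FPKM, and the log2 fold change with OGD was 0.09, below 1.5-fold. Acsl1, the long-chain acyl-CoA synthetase that is prominent in heart and fat (ENSMUSG00000018796, plus strand of chromosome 8), was at 11.4, 9.38, 6.57 and 12.5 FPKM, with log2 fold changes of -0.25 and 0.83. Here Acsl1-201 led in every library, and the weighted values were close to the sums, with log2 fold changes of -0.35 and 0.90. Acsl3, the synthetase of lipid droplets and endoplasmic reticulum, was at 18.7, 22.3, 25.1 and 26.7 FPKM, and Acsl5, of mitochondria and endoplasmic reticulum, was at 18.9, 21.9, 22.2 and 22.9 FPKM. Both had their lowest value in Ctrl.

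The widest differences were found in peroxisomal Abcd3, the half-transporter that brings long-chain, branched-chain and bile acid intermediates into peroxisomes (ENSMUSG00000028127, minus strand of chromosome 3, 121758774 to 121815302). Without OGD its level was 11.8 FPKM in Ctrl, while PGC-1α had 6.05 FPKM, and with OGD it was 3.61 FPKM in control and 21.7 FPKM in PGC-1α cells. The lowest and the highest values were thus both in OGD libraries. The log2 fold change of PGC-1α against control was -0.86 without OGD and 2.30 with OGD, and that of OGD was -1.48 in control cells and 1.69 in PGC-1α cells. All of this rests on 1 transcript of 3489 bases, Abcd3-201, the only one of 2 annotated coding transcripts in the table, so that reads assigned to the other transcript are not seen in these values. Ehhadh, below the limit of 1 FPKM and not compared, had the same 4 directions in its values given above, within a range of 0.675 to 1.10 FPKM. Hsd17b4, the bifunctional enzyme of branched and very long chains, was at 27.4, 36.0, 26.7 and 29.6 FPKM, with log2 fold changes of 0.38 and 0.14. Acaa1a, the peroxisomal thiolase, was at 4.03, 5.75, 4.62 and 3.84 FPKM, with 0.42 and -0.22. Acox3, an oxidase of branched chains, was at 4.34, 4.81, 3.64 and 4.04 FPKM, with 0.12 in both.

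In the branched-chain amino acid branch, Acadsb stood apart from the other 4 genes. Acadsb, the short/branched-chain dehydrogenase of isoleucine breakdown (ENSMUSG00000030861, plus strand of chromosome 7, 131410601 to 131448944), was at 34.1, 10.1, 17.3 and 20.5 FPKM. Its value of -1.66 in PGC-1α vs Ctrl was the lowest of all members in that comparison, and with OGD the value was 0.23. Ctrl was above, and PGC-1α below, both OGD libraries. Its 2 transcripts in the table shared the pattern in PGC-1α vs Ctrl, with Acadsb-201 at 15.7, 6.90, 8.01 and 8.27 FPKM and Acadsb-202 at 18.4, 3.20, 9.32 and 12.2 FPKM, and after weighting by length the value was -1.42. Ivd, the dehydrogenase of leucine breakdown, was at 12.01, 15.6, 11.1 and 12.1 FPKM, with log2 fold changes of 0.35 and 0.12. Hibch and Hibadh, consecutive enzymes of valine breakdown, were at 14.5, 17.7, 15.9 and 17.8 FPKM and at 56.3, 63.8, 53.2 and 62.4 FPKM. Both were higher in the PGC-1α library of each pair, by at most 0.27. Acad8, the isobutyryl-CoA dehydrogenase of valine breakdown, was at 3.54, 3.66, 3.23 and 4.16 FPKM.

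The remaining comparisons asked what OGD followed by recovery did to these genes in each cell type, and they share their libraries with the comparisons above. In Ctrl+OGD vs Ctrl, 15 genes were above 0 and 21 below (48% of all genes above 0), with a median of -0.06 against -0.02 over all genes. No member was at least 1.5-fold higher (6.2% of all genes), and Abcd3 (-1.48), Acadsb (-0.94) and Acsl1 (-0.71) were lower (3 of 36, 8.33%, against 7.71% of all genes). Of the members with 1 transcript, none was higher (5.79% of all such genes), Abcd3 was lower (6.62%), and 8 of 19 were above 0 (50.6%). When each library was scaled to the same total, 4.69% of all genes were higher and 10.4% lower in this comparison. Outside these 3 genes the values ran from -0.43 in Cpt1c to 0.40 in Acsl3, so that in control cells the mitochondrial spiral differed little after OGD.

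In PGC-1α+OGD vs PGC-1α, 12 genes were above 0 and 24 below (50.1% of all genes above 0), with a median of -0.09 against 0.00 over all genes. Abcd3 (1.69) and Acadsb (0.96) were higher (2 of 36, 5.56%, against 3.82% of all genes). Acadm (-0.69), Acads (-0.68) and Acadvl (-0.60) were lower (3 of 36, 8.33%, against 5.22%), and all 3 are straight-chain acyl-CoA dehydrogenases. Acadvl was close to the limit and, with transcripts weighted by length, was at -0.52, within 1.5-fold. Acadvl-202, its transcript with the highest mean over all libraries, was at 1.34. Acadvl-201, which led in PGC-1α, was listed at 0 in PGC-1α+OGD. Both are given with the plot of transcripts. Of the members with 1 transcript, Abcd3 was higher (2.55% of all such genes) and Acads was lower (4.6%). Their PGC-1α library is the same as in PGC-1α vs Ctrl, where it held the highest values, so the 2 comparisons do not give separate evidence. The summed level of the straight-chain enzymes was 258 FPKM in PGC-1α+OGD, nearer to the 241 and 244 FPKM of the controls than to the 339 FPKM of PGC-1α.

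**Figure D3:**
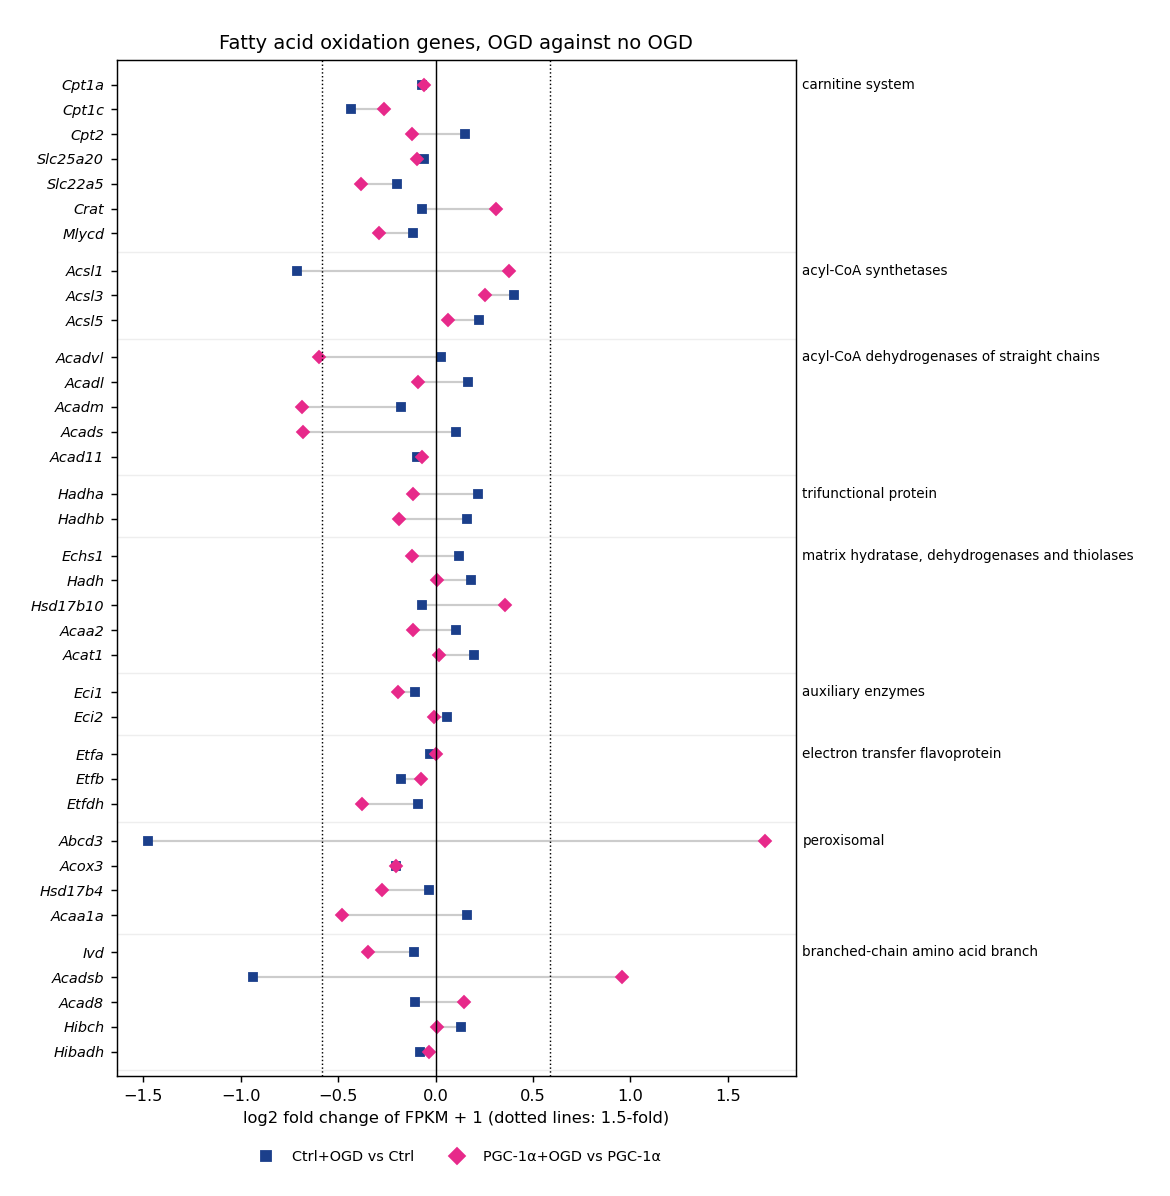
Log2 fold change of FPKM + 1 for the 36 genes compared, in Ctrl+OGD vs Ctrl (squares) and in PGC-1α+OGD vs PGC-1α (diamonds), grouped by role; each point compares 2 libraries, and dotted lines mark 1.5-fold. Abcd3 and Acadsb lie on opposite sides of 0 in the 2 cell types, and the diamonds of Acadvl, Acadm and Acads lie left of the lower dotted line while their squares lie near 0.

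The gene sums hide differences between transcripts in some members. Of the 36 genes compared, 19 had 1 transcript in the table and 17 had 2 or more, and in 6 of the latter (Cpt1c, Crat, Acadvl, Hadhb, Etfdh and Acadsb) the leading transcript was not the same in every library. Acadvl-201, of 2020 bases, was at 9.95 and 21.6 FPKM in Ctrl and PGC-1α and listed at 0 in both OGD libraries, whereas Acadvl-202, of 2168 bases, was at 5.51, 6.62, 15.8 and 18.3 FPKM. By Acadvl-202 alone, the transcript with the highest mean over all libraries, the log2 fold change in PGC-1α vs Ctrl was 0.23, below 1.5-fold. In those 2 libraries Acadvl-201 was the higher transcript and differed more. The switch followed OGD in both cell types, while the sum of the 2 did not differ between Ctrl and Ctrl+OGD by more than 0.03 on the log2 scale. Etfdh-202 was at 13.8, 16.5, 7.48 and 14.9 FPKM and Etfdh-201 at 4.22, 8.27, 9.38 and 3.98 FPKM, so that only in Ctrl+OGD was Etfdh-201 the higher one. Hadhb-201 (6.59, 10.9, 6.33 and 7.78 FPKM) and Hadhb-203 (6.503, 11.8, 7.40 and 10.3 FPKM) were near each other in every library and had the same direction in PGC-1α vs Ctrl. How fragments were divided between overlapping transcripts is not given in the sources used here, and a switch in FPKM of similar transcripts can come with the estimate as well as with the RNA, which was not tested. In addition, 15 members share exon bases with another gene, 4 of them on the same strand and 11 on the opposite strand only. Etfb shares 617 of its 1164 exon bases with Gm45233 on the same strand, where strand cannot separate the reads. Gm45233 was not among the genes of the table. Acadvl shares 1151 of its 2686 exon bases with Dvl2 on the opposite strand, and since the library kit keeps strand but the counting is not stated to use it, reads of the 2 cannot be told apart here.

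**Figure D4:**
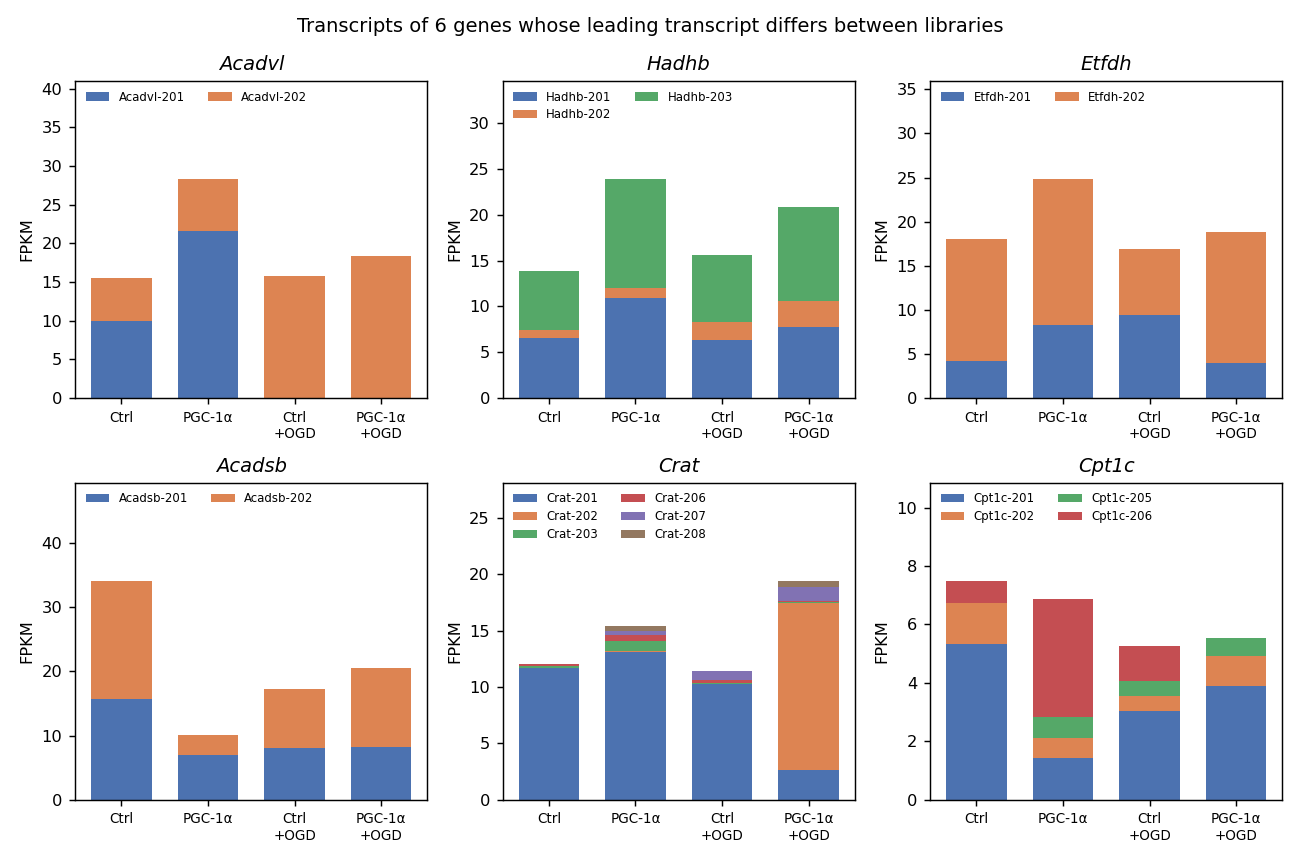
FPKM of each transcript, stacked, in the 4 libraries for the 6 genes whose leading transcript differs between libraries; 1 library per bar. Acadvl-201 is at 0 in both OGD libraries, Crat-202 appears in PGC-1α+OGD, and both Acadsb transcripts are lowest in PGC-1α.

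Upstream sequence was examined for motifs known from regulation of this pathway. RefSeq windows of 300 bases (GRCm38.p6, 250 before to 50 after a start) matched 34 of the 39 genes, with 36 windows, while Acaa2, Acat1, Crat, Decr1 and Hsd17b4 had none. Motifs were searched on both strands. The extended half-site of the estrogen-related receptors, TNAAGGTCA, was in 0 of 36 windows (1.28% of all 32851 windows), the direct repeat bound by PPARs, AGGTCA given 2 times with any 1 base between, was in 0 (0.0396%), and the E-box CACGTG was in 0 (7.15%). The motif of nuclear respiratory factor 1, GCGC and TGCGC with any 1 base between, was in 6 windows (16.7%, against 4.6% of all windows), those of Abcd3, Acad10, Etfb, Etfdh, Hibadh and Slc22a5. The plain half-site AGGTCA, which is part of the first 2 motifs and was added after values had been seen, was in 6 windows (16.7%, against 16.3%), those of Acadm, Acadvl, Cpt1a, Cpt1c, Echs1 and Hibadh. No match in these windows says only that the letters are not there, and a match is not evidence of binding.

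The 250 bases before the RefSeq start are shown for Abcd3 and Acadvl, the genes past 1.5-fold in PGC-1α vs Ctrl whose window held a motif, and for Acadm, the gene just below 1.5-fold, chosen after its values were seen. All are printed 5′ to 3′ on the minus strand, on which the genes lie, with the match in capitals. In Abcd3 (chr3:121815303-121815552) the capitals mark the motif of nuclear respiratory factor 1, at 60 to 51 bases before the start. In Acadvl (chr11:70015429-70015678) they mark AGGTCA, at 87 to 82 bases before the start. In Acadm (chr3:153944644-153944893) they mark AGGTCA on the other strand, at 249 to 244 bases before the start.
Abcd3: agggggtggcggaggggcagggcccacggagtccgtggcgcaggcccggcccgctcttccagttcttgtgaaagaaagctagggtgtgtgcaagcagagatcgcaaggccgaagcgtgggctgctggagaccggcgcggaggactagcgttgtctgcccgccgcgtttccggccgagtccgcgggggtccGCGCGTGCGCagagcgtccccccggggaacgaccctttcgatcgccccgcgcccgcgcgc
Acadvl: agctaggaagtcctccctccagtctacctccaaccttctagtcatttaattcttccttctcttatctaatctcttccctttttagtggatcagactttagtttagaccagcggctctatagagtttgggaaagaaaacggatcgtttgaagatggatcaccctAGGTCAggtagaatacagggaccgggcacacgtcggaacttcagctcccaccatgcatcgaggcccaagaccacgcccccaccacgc
Acadm: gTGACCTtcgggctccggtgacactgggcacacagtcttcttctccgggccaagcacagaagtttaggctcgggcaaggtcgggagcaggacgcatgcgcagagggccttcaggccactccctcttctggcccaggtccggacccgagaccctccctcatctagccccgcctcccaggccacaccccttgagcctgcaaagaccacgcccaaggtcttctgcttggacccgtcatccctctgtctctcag

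Genes around the pathway were described from 3 lists of other names. Of 37 other genes of fatty acid metabolism, 30 were in the table and 27 were compared. In PGC-1α vs Ctrl, 2 of the 27 were at least 1.5-fold higher (4.91% of all genes) and 1 lower (5.63%), 16 were above 0 (45.8%), and the median was 0.12, so that the calls were few, as among all genes. Echdc2, an enoyl-CoA hydratase domain protein, was at 3.19, 9.31, 3.22 and 8.37 FPKM, with log2 fold changes of 1.30 and 1.15, and was higher in both PGC-1α libraries than in both controls. Amacr, the α-methylacyl-CoA racemase, was at 5.88, 9.51, 7.67 and 9.45 FPKM (0.61 without OGD), and Acot2, the mitochondrial acyl-CoA thioesterase, was at 67.8, 43.0, 47.0 and 49.8 FPKM (-0.65 without OGD). With OGD, 1 gene was higher (Echdc2, against 3.08% of all genes) and 1 lower (3.82%), 16 were above 0 (47.1%), and the median was 0.05. The lower one was Acad9, a dehydrogenase that also serves in complex I assembly, at 5.17, 6.13, 8.75 and 4.84 FPKM (-0.74).

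Among 22 regulators, 18 were in the table and all 18 were compared. In PGC-1α vs Ctrl, 3 of the 18, the overexpressed gene included, were higher (4.91% of all genes) and 0 lower (5.63%), with 6 above 0 (45.8%) and a median of -0.03. Beside Ppargc1a these were Pdk4, the kinase that restrains pyruvate dehydrogenase, at 4.90, 10.998, 5.31 and 9.96 FPKM (log2 fold changes of 1.02 and 0.80), and Esrra, the estrogen-related receptor α, at 4.73, 8.75, 5.13 and 7.30 FPKM (0.77 and 0.44). Both were higher in the 2 PGC-1α libraries than in the 2 controls. In PGC-1α+OGD vs Ctrl+OGD, 4 were higher (3.08% of all genes) and 0 lower (3.82%), with 13 above 0 (47.1%) and a median of 0.14. The 4 were Ppargc1a, Pdk4, Angptl4 and Gabpa. Angptl4, a secreted inhibitor of lipoprotein lipase and a PPAR target, was at 38.9, 44.2, 16.6 and 32.3 FPKM (0.92 with OGD), and Gabpa, a subunit of nuclear respiratory factor 2, was at 34.7, 32.3, 23.2 and 35.9 FPKM (0.61 with OGD). For both of these the Ctrl+OGD library was the lowest of the 4. Receptors Pparg, at 26.5, 30.4, 24.0 and 22.8 FPKM, and Ppard, at 14.6, 14.3, 12.5 and 14.0 FPKM, were expressed and differed by less than 1.5-fold between PGC-1α and control.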

How the data were processed

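Total RNA was extracted with TRIzol, poly(A) RNA was enriched, and stranded libraries were sequenced as 150 bp paired-end reads from 4 cultures of HT-22 cells, 1 per group. The authors aligned reads to GRCm38 with HISAT2 (2.1.0 in the submitters' processing notes) and deposited values per transcript in 1 table. The unit is not named, and FPKM was assumed for the deposited values from their range and column totals (331892 to 353381). The program that estimated them is not given in the sources used here. Reads per library are unknown, because the low values showed no clear whole-read steps, so no interval was given. At the best of many trial depths, 27.0% to 33.6% of these values lay within 0.1 reads of a step. By chance 20.0% would at any fixed depth, and the best of many depths lies above that by selection.

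Of 25889 transcripts, 25822 (99.7%) were matched to GENCODE M21 by identifier without version and summed per symbol. 67 were left out. Groups were taken from the sample records. Values were compared as log2(FPKM + 1) for genes that averaged 1 FPKM or more, and no test was run. All members in the table are accounted for, with full values for those past 1.5-fold in any comparison. Members of the other lists are named where they passed 1.5-fold in a comparison of PGC-1α with control, and other names were added after values were seen. The members and lists were chosen with earlier results of these data known. Alternatives were a pseudocount of 0.1, no filter, a mean of at least 5, the highest transcript per gene, median ratio scaling, scaling to the same total, and a fold change of at least 2. The highest transcript was the one with the highest mean over all libraries, which need not lead in each library. Genes with 1 transcript, and transcripts weighted by length, were added after seeing the data. Calculations were made in pandas 2.3.3 and numpy 2.4.6 under Python 3.11.15, with figures from matplotlib 3.10.9, and were tested on simulated data.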

Additional observations from a re-analysis of the deposited data

Results flagged for a closer look

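Abcd3 drew attention because its difference between PGC-1α and control had opposite directions without and with OGD, at -0.86 and 2.30 on the log2 scale, which are 3.17 apart. Equally, OGD went with a lower level in control cells (-1.48) and a higher level in PGC-1α cells (1.69), again 3.17 apart. Acadsb was lower after OGD in control cells (-0.94) and higher in PGC-1α cells (0.96), 1.89 apart. Each of these values compares single libraries, so the difference between the cell types or conditions was not tested. Both genes kept these directions under every alternative that was run, except that Acadsb, which has 2 transcripts in the table, is not among the genes with 1 transcript.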

How the results depend on the processing

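No paired analysis was possible because each group has 1 library. The median of the members stayed between 0.20 and 0.28 over 8 alternatives in PGC-1α vs Ctrl, between 0.13 and 0.18 in PGC-1α+OGD vs Ctrl+OGD, between -0.15 and -0.03 in Ctrl+OGD vs Ctrl, and between -0.13 and -0.07 in PGC-1α+OGD vs PGC-1α. Counts past a threshold were small and moved more. With the highest transcript per gene, 1 member was lower in PGC-1α+OGD vs Ctrl+OGD (7.23% of all genes under this choice), 1 was higher (9.59%) and 6 were lower (10.4%) in Ctrl+OGD vs Ctrl, and in PGC-1α+OGD vs PGC-1α 5 were higher (7.46%); calls over all genes were also more frequent than with sums. The same choice turned Crat to -1.64 in PGC-1α+OGD vs Ctrl+OGD and Acadvl to 1.34 in PGC-1α+OGD vs PGC-1α, since 1 transcript then stands for genes whose leading transcript differs, and it brought Acadvl to 0.23 in PGC-1α vs Ctrl. At 2-fold, 0 were higher (1.47% of all genes) and 1 lower (1.53%) in PGC-1α vs Ctrl, and 1 was higher in PGC-1α+OGD vs Ctrl+OGD (1.02%). With this limit 1 was lower in Ctrl+OGD vs Ctrl (1.94%), and 1 was higher (1.19%) and 0 lower (1.67%) in PGC-1α+OGD vs PGC-1α. A stricter limit gives fewer calls by construction. Among genes with 1 transcript, 1 was higher (4.69% of all such genes) and 1 lower (4.79%) in PGC-1α vs Ctrl, and 1 was higher in PGC-1α+OGD vs Ctrl+OGD (2.17%). Of these genes 1 was lower in Ctrl+OGD vs Ctrl (6.62%), and 1 was higher (2.55%) and 1 lower (4.6%) in PGC-1α+OGD vs PGC-1α, with fewer genes compared. Weighting transcripts by length brought Crat to 0.09 in PGC-1α+OGD vs Ctrl+OGD and Acadvl to -0.52 in PGC-1α+OGD vs PGC-1α. Acadm passed 1.5-fold in PGC-1α vs Ctrl with median ratio scaling (0.60). With each library scaled to the same total, 28, 30, 13 and 8 of the 36 genes were above 0 in the 4 comparisons. This scaling shifts every gene, and the medians over all genes were -0.05, 0.01, -0.10 and -0.03 in the same order. The members' medians were 0.20, 0.17, -0.15 and -0.13. Depth is unknown, so the precision of low values such as those of Slc22a5 and Acad8 cannot be given.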

Other observations

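The other genes of branched-chain amino acid catabolism, 16 of 16 in the table, had a median of 0.13 on the log2 scale in PGC-1α vs Ctrl, with 10 above 0 (45.8% of all genes), 1 at least 1.5-fold higher (4.91%) and 1 lower (5.63%). Aldh6a1, the methylmalonate semialdehyde dehydrogenase of valine breakdown, was at 5.64, 12.6, 7.999 and 8.24 FPKM (log2 fold change 1.03), and Bcat2, the mitochondrial branched-chain aminotransferase, was at 20.2, 10.51, 17.4 and 13.4 FPKM (-0.88). In PGC-1α+OGD vs Ctrl+OGD, 11 of the 16 were above 0 (47.1% of all genes), none passed 1.5-fold (3.08% higher and 3.82% lower), and the median was 0.09. In Ctrl+OGD vs Ctrl, 4 of the 16 were lower, against 7.71% of all genes, and 0 were higher (6.2%). These genes, named after their values were seen, were Dbt (10.8 to 4.997 FPKM, -0.97) and Bckdha (10.1 to 6.27 FPKM, -0.61), subunits of the branched-chain ketoacid dehydrogenase, Ppm1k, its phosphatase (3.14 to 1.505 FPKM, -0.72), and Auh, a hydratase of leucine breakdown (29.9 to 15.7 FPKM, -0.89).

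Fabp5, a fatty acid binding protein also named after its values were seen, was at 17.8, 26.1, 49.2 and 45.9 FPKM, with log2 fold changes of 1.42 in Ctrl+OGD vs Ctrl and 0.79 in PGC-1α+OGD vs PGC-1α. Both OGD libraries were above both libraries without OGD. Angptl4 was lower after OGD in control cells, at -1.18.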
